A study of Homo sapiens with 12 samples.

Results

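The comparison described here sets HT144 cells transfected with #1 siCITED1 directly against HT144 cells transfected with #3 siCITED1, to find which functions separate these siRNAs against the same target. HT144 cells are an established line of human melanoma. The arrays were chosen by their titles, 4 for #1 siCITED1 and 4 for #3 siCITED1, which are 8 of the 12 arrays of the series. The other 4 arrays, of cells given the control siRNA siNEG, are left out of the comparison and appear only as values set beside it. Cells of all groups were of this line with no other alteration named, received their siRNA in a cationic lipid (Lipofectamine) and were collected 48 h later, and the wells of every group were of 1 passage and plated together. What the p-values measure is therefore how far wells of that day differ, and not how far repeated experiments would.

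CITED1 is a transcriptional co-regulator that binds no DNA itself and works through the acetyltransferases CBP and p300, and it is expressed in cells of the melanocyte lineage. An siRNA guides the RNA-induced silencing complex to a matching transcript, which is then cleaved. Strands of different sequence share the intended target and can each pair in part with other transcripts, and double-stranded RNA can also be sensed as foreign by the cell.

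RNA was hybridised to Illumina HT-12 BeadChips, and 47315 probes were read; 30105 of them have 1 gene symbol, for 20045 genes in all. The deposited values are log2 intensities centred on each probe over the 12 arrays and on each array, so a value is a distance from the probe's own mean and says nothing of how abundant a transcript was. A check of the cell type by the level of its markers was therefore not possible, and only differences in such markers are given below. The SDs of the 8 arrays over all probes lay between 0.1106 and 0.1314. The leading principal component of the 8 arrays held 39.5% of the variance and separated the groups, with scores of 13.72 to 17.2 for #1 and -18.47 to -13.44 for #3. Precision is limited by having 4 arrays a group: the median SE of a difference was 0.0693 log2.

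The target of both siRNAs was measured by probe ILMN_1691641. CITED1 lay at -0.14, -0.19, -0.13 and -0.25 in the #1 arrays, against -0.20, -0.33, -0.28 and -0.34 in the #3 arrays, and at 0.44, 0.35, 0.54 and 0.53 in the siNEG arrays. The #1 and #3 arrays overlapped, and all of them lay below the siNEG arrays. The difference between #1 and #3 was 0.11 log2 (95% interval from -0.03 to 0.24), with an exact two-sided permutation p of 0.0571, where the smallest that 4 against 4 arrays allow is 0.0286. CITED1 mRNA was thus not shown to differ between the siRNAs, and the interval gives the range that these arrays allow. This holds for mRNA alone. The authors also showed a Western blot, and proposed that the siRNA with the weaker effects may have silenced its target less well. That siRNA was #3 siCITED1. The arrays do not measure protein, so a difference in CITED1 protein between the siRNAs was not tested.

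Nor did the CITED1 relatives and the partners it binds pass the test between the siRNAs. Differences were 0.11 for CITED2, 0.03 for CITED4, -0.05 and -0.03 for the 2 probes of CREBBP, which encodes CBP, and -0.09 for EP300, which encodes p300, and none of these 4 genes passed the test. MITF, the master transcription factor of melanocytes, was read by 3 probes, with differences of -0.01, -0.05 and -0.02 (95% intervals from -0.16 to 0.15, from -0.18 to 0.09 and from -0.16 to 0.12; exact permutation p of 0.943, 0.371 and 0.914). Among the cyclin-dependent kinase inhibitors followed in the study, CDKN1C, the inhibitor p57, gave -0.09 (adjusted p = 0.623, limma). CDKN1A, the inhibitor p21, gave -0.21 at probe ILMN_1784602 (adjusted p = 0.0602, limma) and -0.04 at its other probe, so neither passed. At ILMN_1784602 the #1 and #3 arrays did not overlap. Against siNEG that probe was at 0.12 with #1 (limma adjusted p = 0.486) and at 0.33 with #3 (adjusted p = 0.0073). The other probe was at -0.06 and -0.02 and passed with neither siRNA.

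Over all probes, 3857 of 47315 differed between #1 and #3 at an adjusted p under 0.05 (limma, Benjamini-Hochberg), which is 8.15% of the probes. Of these 1925 were higher with #1 (4.07%) and 1932 were lower (4.08%). The differences were mostly small: 437 probes reached a fold of 1.5 and 47 a fold of 2. In 3331 of the probes called, the #1 and #3 arrays did not overlap, and over all 47315 probes this was so in 5175. With the probes of a gene averaged, 2592 of 20045 genes passed (12.9%), 1322 higher with #1 (6.6%) and 1270 lower (6.34%), and the median difference over all genes was 0.0001. These shares over all genes are the background against which the counts of gene groups below are given. They take in every named gene, since dim probes could not be filtered out.

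The siNEG arrays are set beside these differences. In 2632 of the 3857 probes called (68.2%) the siNEG mean lay between the #1 mean and the #3 mean. It lay above both in 687, below both in 538, and nearer the #3 mean in 2570 (66.6%). Probes were called because the #1 and #3 means lay far apart, and that choice alone favours a siNEG mean between them. The share over probes not called was not counted, so the 68.2% does not locate the differences. Set against siNEG on their own, 1973 genes passed with #1 (9.84%) and 871 with #3 (4.35%), and 63 genes passed in opposite directions. These comparisons share the siNEG arrays and are therefore only given side by side.

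Of the genes higher with #1, the 12 with the largest probe differences spanned 1.26 to 1.66 log2. CEMIP, which binds and breaks down hyaluronan, lay at 0.78, 0.78, 0.82 and 0.92 in the #1 arrays, against -0.82, -0.61, -0.92 and -0.97 in the #3 arrays. The siNEG arrays lay between them, and the difference was 1.66 ± 0.07 log2 (SE, n = 4 each, 3.15-fold, limma adjusted p = 5.69e-13). GPNMB, a glycoprotein of melanosomes and lysosomes, lay at 0.84, 0.65, 0.79 and 0.90 in the #1 arrays, against -0.98, -0.50, -0.86 and -1.10 in the #3 arrays. Its siNEG arrays were spread from -0.48 to 0.42, between the groups, and the difference was 1.65 ± 0.09 (3.14-fold, adjusted p = 2.33e-11), with 1.56 at its other probe. CEMIP and GPNMB thus stood on opposite sides of siNEG with the siRNAs: CEMIP at 0.83 above siNEG with #1 and at -0.83 with #3, GPNMB at 0.72 and at -0.93.

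DKK1, a secreted Wnt antagonist, behaved like these, at 0.68, 0.73, 0.48 and 0.68 in the #1 arrays, against -0.84, -0.93, -0.69 and -0.57 in the #3 arrays (difference 1.40 ± 0.08). RPS6KA2, a kinase downstream of ERK, lay between 0.43 and 0.78 with #1 and between -0.87 and -0.52 with #3 (1.26 ± 0.08), although its other probes gave 0.10 and 0.09 and did not pass. In each of these 4 genes the siNEG mean lay between the groups. In none of them did the #1 and #3 arrays overlap, as the choice of leading genes required. DCTD, the deaminase that supplies dUMP for thymidylate synthesis, differed by 1.31 ± 0.08, mainly on the side of #3: against siNEG it was at 0.23 with #1 (limma adjusted p = 0.113) and at -1.08 with #3 (adjusted p = 8.88e-09).

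Other leading genes stood apart mainly with #1. HMOX1, the heme oxygenase that responds to oxidative stress, lay at 0.99, 1.01, 0.83 and 0.93 in the #1 arrays, against -0.39, -0.34, -0.27 and -0.35 in the #3 arrays. The siNEG arrays lay lowest for 3 of their 4 values, from -0.91 to -0.24, and the difference between the siRNAs was 1.27 ± 0.06 (2.42-fold, limma adjusted p = 3.61e-12). KAT2B, the acetyltransferase PCAF, which itself binds CBP and p300, lay at 0.81, 0.77, 1.10 and 0.84 in the #1 arrays, against -0.55, -0.46, -0.53 and -0.60 in the #3 arrays (difference 1.42 ± 0.07; 1.07 at its other probe). Its siNEG arrays, from -0.69 to -0.16, overlapped those of #3 and none of #1. NR4A2, an orphan nuclear receptor induced early after stimulation, differed by 1.35 ± 0.08 and by 1.23 at its other probe, and SHISA2, an inhibitor of Wnt and FGF receptor maturation, by 1.28 ± 0.07. NPTX1, a secreted neuronal pentraxin, differed 2.82-fold at 1 probe (limma adjusted p = 4.82e-11), while its other probes gave log2 differences of 0.21, which passed, and 0.11 and -0.06, which did not.

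The remaining genes of this group, DDX21 and UQCRBP1, had wide values within groups. DDX21, an RNA helicase of the nucleolus, lay at 0.17, 0.72, 0.71 and 0.97 in the #1 arrays, against -0.41, -0.43, -0.74 and -1.16 in the #3 arrays (difference 1.33 ± 0.14). The siNEG arrays alone ran from -0.93 to 0.58, more than the difference between the siRNAs, and neither siRNA passed against siNEG. UQCRBP1 differed by 1.28 ± 0.17, with #3 replicate 2 at 0.18 and the other #3 arrays at -0.75, -1.01 and -1.10, and its call was lost with robust variance moderation (adjusted p = 0.0529, limma). UQCRBP1 is a copy of UQCRB, a subunit of respiratory complex III, and signal from the parent gene cannot be told apart from its own.

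Of the genes lower with #1, the 12 with the largest probe differences spanned -1.62 to -1.05 log2. MGP, the matrix Gla protein that blocks calcification, lay at -0.65, -0.82, -0.67 and -0.80 in the #1 arrays, against 0.87, 0.86, 0.86 and 0.93 in the #3 arrays. The siNEG arrays, from -0.25 to -0.09, lay between, and the difference was -1.62 ± 0.06 (SE, n = 4 each, 3.07-fold, limma adjusted p = 8.81e-14), with -1.58 at the other probe. DCP2, the enzyme that removes the cap of mRNAs before decay, lay at -1.08, -0.93, -0.75 and -0.70 in the #1 arrays, against 0.69, 0.79, 0.75 and 0.70 in the #3 arrays. It differed by -1.60 ± 0.08, with siNEG between the groups, at -1.0 with #1 and 0.60 with #3 against siNEG.

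MGP and DCP2 were thus lower with #1 and higher with #3 than with siNEG, as were ADAM19, a metalloprotease of the cell surface (-1.29 ± 0.09), LBH, a transcriptional cofactor in Wnt signalling (-1.23 ± 0.07), and DENND5B, an activator of RAB GTPases (-1.17 ± 0.07). Not every probe of these genes showed it: a further probe of ADAM19 gave -0.04 and did not pass, and those of LBH gave -0.35, which passed, and -0.07, which did not. PEDS1, the desaturase of plasmalogen lipids (-1.20 ± 0.08), and ARHGDIB, a regulator of small GTPases (-1.06 ± 0.07), passed on both sides of siNEG too.

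In the other leading genes the difference lay on the side of #1. IL1RAP, the accessory chain of the interleukin-1 receptor, lay at -0.91, -0.76, -0.99 and -1.0 in the #1 arrays, against 0.43, 0.66, 0.58 and 0.72 in the #3 arrays, which overlapped the siNEG arrays. It differed by -1.51 ± 0.07 at that probe and by -0.49 and -0.17 at 2 others, of which the first passed. CDK6, the kinase that drives G1 together with D-type cyclins, lay at -0.76, -0.72, -0.90 and -0.81 in the #1 arrays, against 0.56, 0.44, 0.32 and 0.20 in the #3 arrays (-1.18 ± 0.07, 2.27-fold, limma adjusted p = 1.25e-10). With #3 it overlapped the siNEG arrays (-0.03 against siNEG, adjusted p = 0.957).

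GINS2, a subunit of the replicative helicase, was placed likewise, at -0.83, -0.75, -0.91 and -0.63 in the #1 arrays, against 0.24, 0.36, 0.36 and 0.43 in the #3 arrays (-1.13 ± 0.07). MT1E, a metallothionein that binds zinc and copper, differed by -1.12 ± 0.08 at 1 probe and by -0.05 at the other, which did not pass. FAM3C, a secreted cytokine-like protein, was far below siNEG with both siRNAs and further with #1: it lay between -1.08 and -0.89 in the #1 arrays, against 0.00 to 0.09 in the #3 arrays and 0.73 to 1.04 in the siNEG arrays (-1.05 ± 0.07 between the siRNAs). The plot of the leading genes by array shows these placements.

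**Figure D1:**
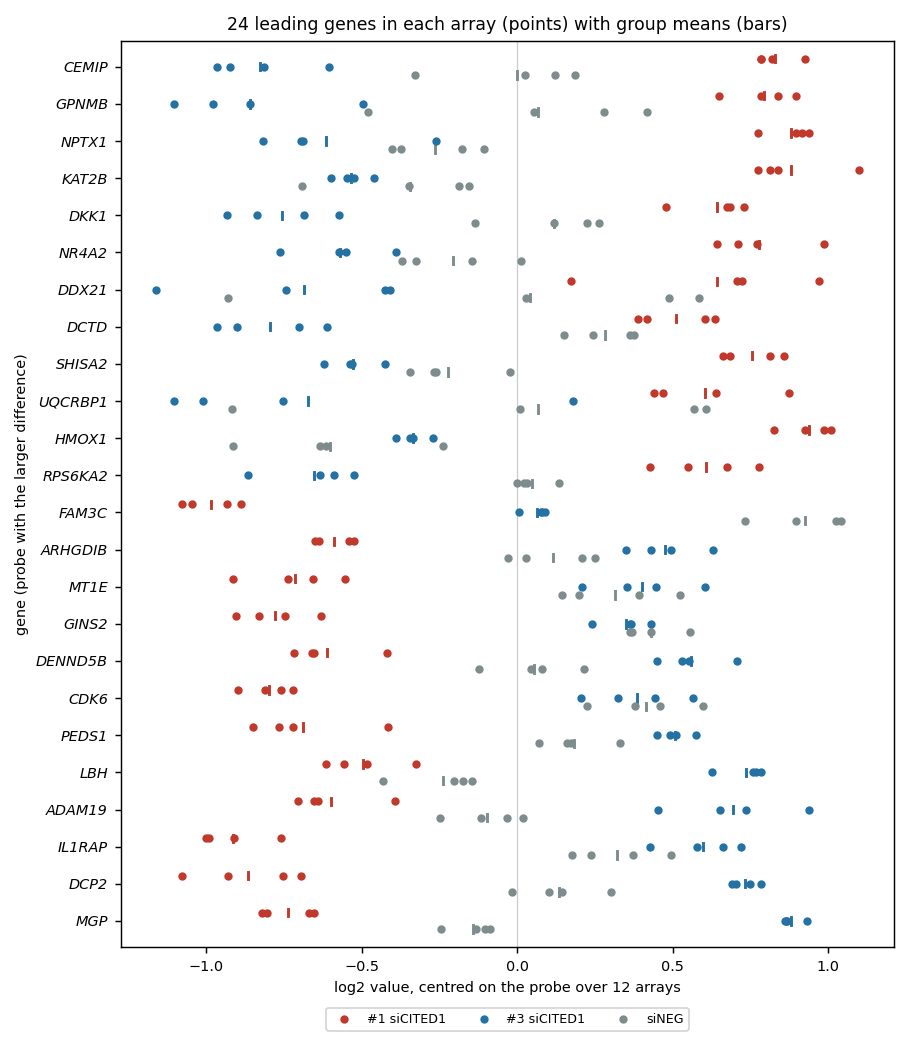
Centred log2 values (x axis) of the 12 leading genes higher with #1 siCITED1 and the 12 lower (rows, by the probe with the larger difference), with 1 point per array and a bar at each group mean for #1, #3 and siNEG. The #1 and #3 points do not overlap in any row, as the choice of genes required, while the siNEG points lie between them for CEMIP, GPNMB, MGP and DCP2, among the #3 points for CDK6 and GINS2, and beyond the #3 points for FAM3C.

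To describe functions, 60 lists of genes with a shared role were counted on the mean of each gene's probes. They held 1535 genes, of which 425 passed (27.7%, against 12.9% of all genes tested). The lists were chosen with earlier results of these data known, so this larger share may partly follow from the choice and is no test. Of the 24 leading genes 11 stood on a list, and most of the genes called belong to none. In 37 of the 60 lists the share called higher exceeded that over all genes, and in 38 the share called lower did. A larger share alone therefore does not set a list apart from the others. The median difference exceeded 0.2 log2 in size in 5 lists, and in 10 lists it exceeded 0.1. The lists of cell division, sterol synthesis, metallothioneins and the unfolded protein response lay on the lower side of #1, and those of pigment, interferon-stimulated and antigen presentation genes on the higher side. The plot of shares by list shows all 60.

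**Figure D2:**
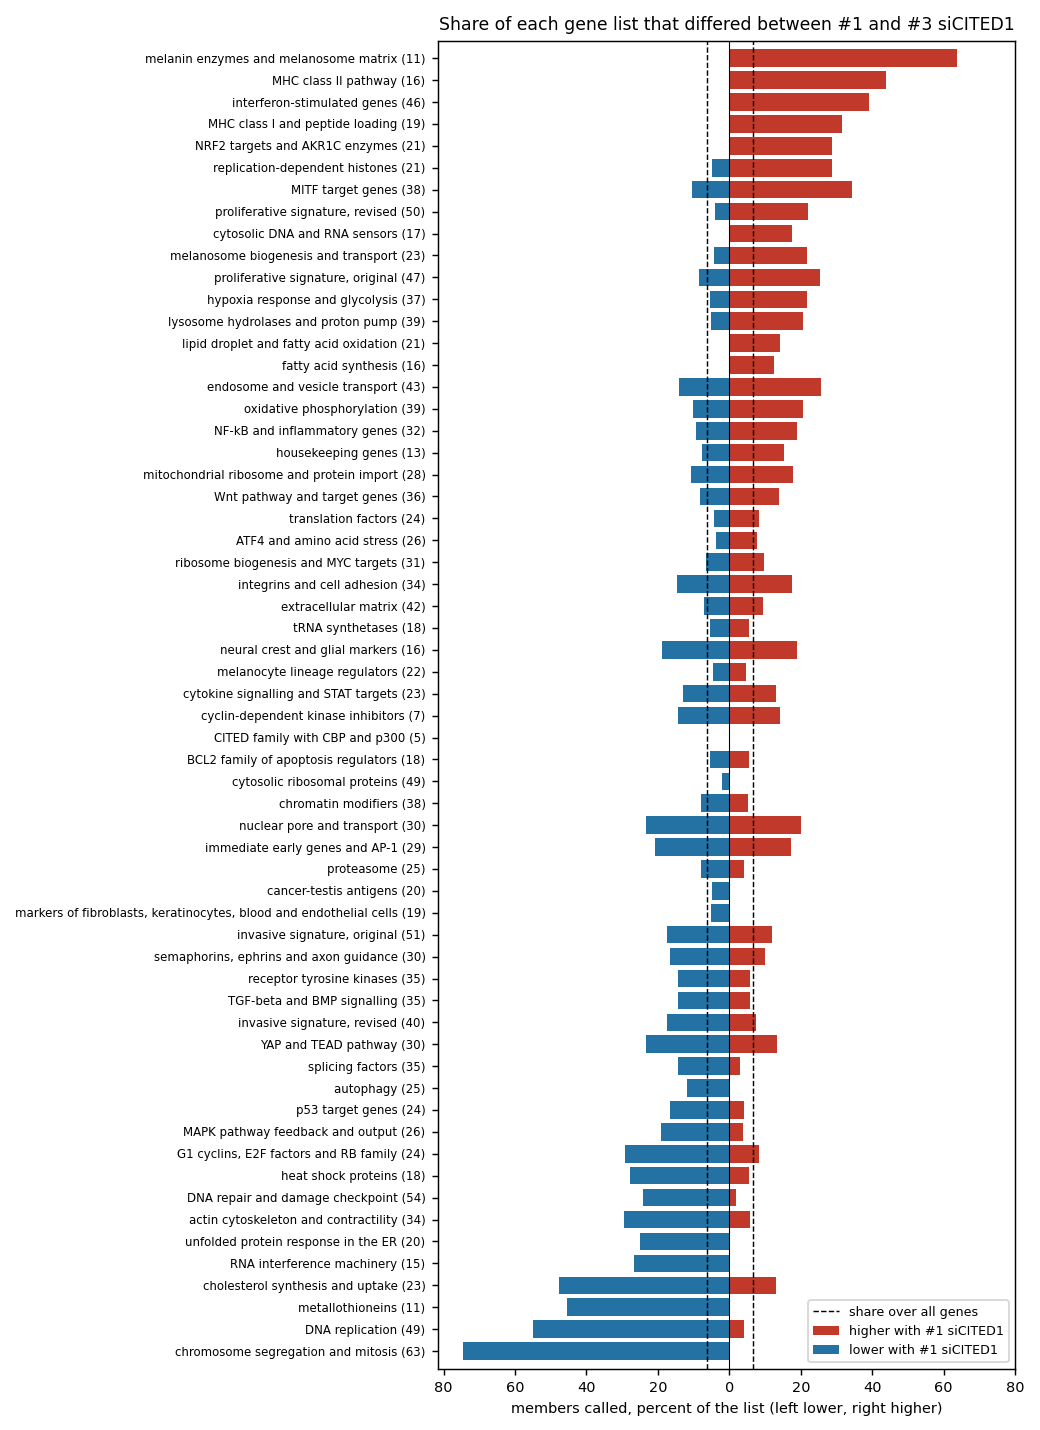
Percent of the measured members of each of 60 gene lists (rows, number of genes in brackets) called higher with #1 siCITED1 than with #3 (bars to the right) or lower (bars to the left) by limma at an adjusted p under 0.05. Dashed lines give the shares over all 20045 genes, 6.6% higher and 6.34% lower; the longest bars are the 7 of 11 melanin and melanosome matrix genes that were higher and the 47 of 63 mitosis genes that were lower.

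Genes of cell division made up the largest group lower with #1. Of 63 genes of chromosome segregation and mitosis, 47 fell, 0 rose and 16 did not pass, with a median difference of -0.34 (0.0001 over all genes). ECT2, the exchange factor that starts the contractile ring, lay at -0.64, -0.63, -0.70 and -0.84 in the #1 arrays, against 0.25, 0.31, 0.23 and 0.39 in the #3 arrays and 0.51, 0.36, 0.29 and 0.46 in the siNEG arrays. The #1 arrays lay far below both other groups, which overlapped (-0.99 ± 0.06 between the siRNAs, SE, n = 4 each, 1.99-fold, limma adjusted p = 9.22e-08).

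KIF20A, a kinesin of the midzone in cytokinesis, lay between -0.54 and -0.47 in the #1 arrays, against 0.05 to 0.47 in the #3 arrays (-0.74 ± 0.07). NCAPG, a condensin subunit, fell by 0.71 on the log2 scale, AURKA, a kinase of spindle poles, by 0.66, SPC24, a kinetochore component, by 0.61, and CDCA8, the borealin subunit of the chromosomal passenger complex, by 0.59. In all 6 of these genes the #1 and #3 arrays did not overlap, which was so for 43 of the 63 members of the list. Over the whole array it was so in 5175 of 47315 probes, and in 3331 of the 3857 probes called. Lack of overlap thus largely goes with the call and adds no separate evidence.

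The siNEG arrays placed this group on the side of #1. The mean of the 63 genes lay between -0.35 and -0.25 in the #1 arrays, against 0.04 to 0.08 in the #3 arrays and 0.14 to 0.26 in the siNEG arrays, so that the groups did not overlap and #3 lay between #1 and siNEG. Of the 47 members called, the siNEG mean was above both siRNAs in 42 and nearer #3 in all 47. Of all 1270 genes called lower with #1, it was above both in 373 and nearer #3 in 849. Against siNEG, 54 members were lower with #1 and 12 with #3, with medians of -0.53 and -0.15. Whether a well held fewer dividing cells or less of these transcripts in each cell cannot be told apart in bulk RNA.

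The 49 genes of DNA replication followed the same order, with 27 lower, 2 higher and 20 not past, and a median of -0.22. Besides GINS2, CDT1, which licenses origins, lay between -0.49 and -0.28 in the #1 arrays, against 0.10 to 0.37 in the #3 arrays (-0.60 ± 0.07). MCM3 and MCM4, subunits of the replicative helicase, fell by 0.55 and 0.54 on the log2 scale, TK1, the thymidine kinase of S phase, by 0.54, and POLA2, a subunit of the primase complex, by 0.52. The list mean lay between -0.23 and -0.18 in the #1 arrays, against 0.03 to 0.06 in the #3 arrays and 0.12 to 0.18 in the siNEG arrays. Against siNEG, 35 members were lower with #1 and 7 with #3.

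Regulators of G1 showed a mixed picture. Of 24 G1 cyclins, E2F factors and RB family genes, 7 fell, 2 rose and 15 did not pass, with a median of -0.06. CCND1, cyclin D1, lay at -0.39, -0.37, -0.45 and -0.40 in the #1 arrays, against 0.29, 0.10, 0.23 and 0.12 in the #3 arrays (-0.59 ± 0.05, limma adjusted p = 4.64e-06), and the #3 arrays overlapped those of siNEG (0.28, 0.14, 0.19 and 0.25). CDC25A, the phosphatase that activates G1 and S phase kinases, fell by 0.47 on the log2 scale and E2F3 by 0.38. RB1, the retinoblastoma protein that holds E2F back, rose by 0.50 ± 0.10, with siNEG arrays spread from -0.56 to 0.30. Of 7 cyclin-dependent kinase inhibitors, CDKN1B, the inhibitor p27, rose (0.27 ± 0.06) and CDKN2D, the inhibitor p19, fell (-0.21 ± 0.05), and 5 did not pass.

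Of 54 genes of DNA repair and the damage checkpoint, 13 fell, 1 rose and 40 did not pass (median -0.06). Among those that fell were CHEK1, the replication checkpoint kinase (-0.46 ± 0.07), H2AX, the histone variant marked at breaks (-0.42 ± 0.07), and TOPBP1, an activator of ATR (-0.40 ± 0.05). Among 24 target genes of p53, 4 fell and 1 rose: TRIAP1, a mitochondrial lipid transfer protein, rose by 0.79 ± 0.08, on the side of #3 (-0.60 against siNEG, limma adjusted p = 0.00095), while PHLDA3, an AKT inhibitor, fell (-0.54 ± 0.08). PMAIP1, the BH3 protein NOXA, fell by 0.34 on the log2 scale, and BCL2A1, an anti-apoptotic relative of BCL2, rose by 0.25; they were the members called of 18 genes of the BCL2 family.

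Replication-dependent histones did not follow the replication genes: of 21 measured, 6 rose, 1 fell and 14 did not pass (median 0.04). H2BC21 lay between 0.35 and 0.60 in the #1 arrays, against -0.25 to 0.01 in the #3 arrays (0.60 ± 0.07), H2AC6 rose by 0.39 ± 0.07 and H1-2, a linker histone, by 0.38 ± 0.08, while H4C3 fell (-0.34 ± 0.06). These genes are near copies of each other, so that a probe may read several of them.

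The promoters of the mitosis genes were read from RefSeq (build GRCh38.p14), taking the 250 bases before each listed start. The cell cycle genes homology region, a motif bound by the MuvB complex, has the core TTTGAA, and it was searched on both strands. It was present before a start in 28 of the 54 mitosis genes with a listed promoter (51.9%), against 16.1% of 27305 genes; among the members that fell it was in 22 of 42 and among those not past in 6 of 12. The 3 promoters below, of members that fell, are shown because each holds 1 copy close to the start, and they were chosen after their values were seen; capitals mark the motif. They lie at chr4:17810729-17810978 (NCAPG), chr1:37692266-37692515 (CDCA8) and chr16:23678639-23678888 (PLK1, a mitotic kinase, -0.36 between the siRNAs), all on the + strand. A match of letters is a description and not a binding site.
NCAPG: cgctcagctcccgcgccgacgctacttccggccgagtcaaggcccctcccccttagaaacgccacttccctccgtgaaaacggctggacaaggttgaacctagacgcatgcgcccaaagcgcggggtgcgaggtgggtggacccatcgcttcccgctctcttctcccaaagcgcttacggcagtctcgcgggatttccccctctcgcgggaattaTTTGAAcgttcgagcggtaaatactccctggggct
CDCA8: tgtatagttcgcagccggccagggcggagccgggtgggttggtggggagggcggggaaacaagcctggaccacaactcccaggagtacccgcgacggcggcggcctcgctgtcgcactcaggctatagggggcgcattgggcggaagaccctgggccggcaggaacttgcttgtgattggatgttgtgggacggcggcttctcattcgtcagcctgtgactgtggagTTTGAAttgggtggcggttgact
PLK1: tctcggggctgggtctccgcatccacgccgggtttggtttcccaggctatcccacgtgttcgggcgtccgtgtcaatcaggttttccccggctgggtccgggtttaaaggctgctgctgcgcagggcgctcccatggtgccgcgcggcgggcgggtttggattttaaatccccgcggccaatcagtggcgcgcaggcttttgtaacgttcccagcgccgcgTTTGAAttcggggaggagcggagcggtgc

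The copies began 35, 23 and 29 bases before the start in NCAPG, CDCA8 and PLK1. That they lay close to the start follows from how these promoters were chosen. In SPC25, which also fell, the match began 247 bases before the start.

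Pigment genes were the group with the largest share higher with #1. Of 11 genes of melanin enzymes and melanosome matrix, 7 rose, 0 fell and 4 did not pass, with a median of 0.28. PMEL, which forms the fibrils of the melanosome, lay at 0.92, 0.73, 0.55 and 0.69 in the #1 arrays, against -0.31, -0.30, -0.51 and -0.72 in the #3 arrays, and the siNEG arrays, from -0.45 to 0.04, overlapped those of #3 (1.18 ± 0.09, SE, n = 4 each, 2.27-fold, limma adjusted p = 1.1e-06). TYR, tyrosinase, lay at 0.50, 0.36, 0.63 and 0.63 in the #1 arrays, against -0.22, 0.07, -0.21 and -0.16 in the #3 arrays and -0.46 to -0.36 in the siNEG arrays (0.66 ± 0.07). For TYR the order was #1, then #3, then siNEG, with no overlap between groups.

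TYRP1, an enzyme that stabilises tyrosinase, rose by 0.48 ± 0.08, GPR137B, a lysosomal membrane protein, by 0.67 ± 0.10, and MLANA, a melanosomal protein that binds PMEL, by 0.28 ± 0.06. MLANA was above siNEG with both siRNAs, at 0.93 with #1 and 0.66 with #3. GPNMB, as the mean of its probes, differed by 1.61 ± 0.09. The list mean lay between 0.22 and 0.33 in the #1 arrays, against -0.19 to -0.11 in the #3 arrays and -0.20 to -0.10 in the siNEG arrays, so the #3 arrays were among those of siNEG. None of the MITF probes passed between the siRNAs, as given above, and of 22 regulators of the melanocyte lineage only TFAP2A (0.21 ± 0.05) and TBX2 (-0.52 ± 0.06) passed.

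The M box, an extended E box bound by MITF, was searched by its core TCATGTG, which holds the E box CATGTG, on both strands. It stood in the 250 bases before a start in 6 of the 9 genes of the list with a promoter in RefSeq (66.7%), against 3.11% of 27305 genes, and in 4 of the 6 that rose and 2 of the 3 that did not pass. The promoters of GPNMB (chr7:23246525-23246774) and TYR (chr11:89177625-89177874), both on the + strand of GRCh38.p14, are shown because these genes rose and hold the core, with capitals on each match; in GPNMB the matches read on the opposite strand.
GPNMB: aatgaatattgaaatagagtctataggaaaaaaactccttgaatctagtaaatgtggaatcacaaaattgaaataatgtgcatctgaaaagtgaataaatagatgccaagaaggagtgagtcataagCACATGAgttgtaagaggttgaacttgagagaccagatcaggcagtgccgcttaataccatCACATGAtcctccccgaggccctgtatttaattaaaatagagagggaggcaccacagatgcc
TYR: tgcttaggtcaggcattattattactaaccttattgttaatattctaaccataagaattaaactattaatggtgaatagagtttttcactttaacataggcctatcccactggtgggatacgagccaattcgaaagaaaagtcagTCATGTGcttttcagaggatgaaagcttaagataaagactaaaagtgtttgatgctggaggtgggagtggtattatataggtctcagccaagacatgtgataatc

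The matches began 123 and 62 bases before the start in GPNMB and 105 bases before it in TYR.

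Wider lists of pigment cell genes were less uniform. Of 38 MITF target genes, 13 rose and 4 fell (median 0.05), and 5 of those called are melanin or matrix genes named above. PPARGC1A, a coactivator of mitochondrial biogenesis, lay at 0.39, 0.50, 0.36 and 0.33 in the #1 arrays, against -0.15, -0.17, -0.17 and -0.30 in the #3 arrays (0.59 ± 0.06). The 4 siNEG arrays, from -0.41 to -0.05, overlapped those of #3. HIF1A, the oxygen-regulated transcription factor, rose by 0.66 ± 0.06 on the side of #3, at 0.13 against siNEG with #1 (limma adjusted p = 0.61) and -0.53 with #3 (adjusted p = 0.0076). Of 23 genes of melanosome biogenesis and transport, 5 rose, among them RAB38 (0.33 ± 0.07) and MYO5A (0.32 ± 0.05), which carry cargo to and along with melanosomes, while BLOC1S6, a subunit of the sorting complex BLOC-1, fell (-0.70 ± 0.07).

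The published proliferative signature of melanoma lines gave 12 higher and 4 lower of 47 genes in its original version (median 0.10) and 11 higher and 2 lower of 50 in its revised one (median 0.03), and the versions share 9 of the genes called. The invasive signature gave 6 higher and 9 lower of 51 (median -0.04) and 3 higher and 7 lower of 40 (median -0.03). These signatures were followed in the study on the same arrays. PIR, an iron-binding nuclear protein, rose by 0.74 ± 0.07 and GPM6B, a relative of the myelin proteolipid protein, by 0.52 ± 0.05, while SEMA6A, a guidance ligand, fell (-0.58 ± 0.06). Invasive signature members ran both ways: WNT5A, a non-canonical Wnt ligand, rose by 1.01 ± 0.12, with siNEG arrays from -0.90 to 0.31, and AXL, a receptor tyrosine kinase, fell (-0.36 ± 0.05). Of 16 neural crest and glial markers 3 rose and 3 fell, with FABP7, a fatty acid binding protein, at 0.79, 0.57, 0.65 and 0.67 in the #1 arrays, against -0.13, -0.16, 0.00 and 0.05 in the #3 arrays and -0.85 to -0.45 in the siNEG arrays (0.73 ± 0.06). NGFR, the neurotrophin receptor of neural crest cells, fell (-0.67 ± 0.09).

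Interferon-stimulated genes were higher with #1. Of 46 measured, 18 rose, 0 fell and 28 did not pass, with a median of 0.16. MX1, a GTPase that blocks viruses, lay at 0.78, 0.73, 0.64 and 0.52 in the #1 arrays, against -0.03, -0.28, -0.28 and -0.34 in the #3 arrays and -0.59 to -0.31 in the siNEG arrays (0.90 ± 0.07, SE, n = 4 each, 1.87-fold, limma adjusted p = 1.71e-06). The #1 arrays stood apart from both other groups. ISG20, an exonuclease of viral RNA, lay at 0.36, 0.14, 0.29 and 0.00 in the #1 arrays, against -0.40, -0.38, -0.57 and -0.50 in the #3 arrays and 0.09 to 0.44 in the siNEG arrays (0.66 ± 0.07). Here #3 stood apart, below both other groups.

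In 13 of the 18 members called the siNEG mean lay between the siRNAs, in 3 above both and in 2 below both. Over all genes called higher with #1 it lay between in 978 of 1322, so this placement is not particular to the list. IFIT2, which binds foreign RNA, rose by 0.67 ± 0.09, SAMD9, an antiviral factor, by 0.61 ± 0.08, IFI6, a mitochondrial survival protein, by 0.54 ± 0.07, and IRF9, the DNA-binding subunit of the interferon-activated factor ISGF3, by 0.44 ± 0.05. The mean of the 46 genes lay between 0.07 and 0.12 in the #1 arrays, against -0.10 to -0.09 in the #3 arrays and -0.02 to 0.01 in the siNEG arrays, so siNEG lay between the siRNAs. Against siNEG, 7 members were higher and 1 lower with #1, and 1 higher and 5 lower with #3. Among 17 sensors of cytosolic DNA and RNA, 3 rose and 0 fell: IFIH1, the sensor MDA5 of long double-stranded RNA (0.31 ± 0.08), IFI16, a DNA sensor (0.27 ± 0.06), and ZBP1, a sensor of Z-form nucleic acid (0.24 ± 0.05).

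The interferon-stimulated response element was searched as GAAANNGAA on both strands in the same windows. It stood in 25 of the 37 genes of the list with a promoter in RefSeq (67.6%), against 8.41% of 27305 genes, in 14 of the 16 that rose and in 11 of the 21 that did not pass. The promoters of IFI6 (chr1:27672193-27672442, - strand) and ISG20 (chr15:88638766-88639015, + strand) of GRCh38.p14 are shown because these genes rose and differ in the number of matches, 3 in IFI6 and 1 in ISG20, in capitals.
IFI6: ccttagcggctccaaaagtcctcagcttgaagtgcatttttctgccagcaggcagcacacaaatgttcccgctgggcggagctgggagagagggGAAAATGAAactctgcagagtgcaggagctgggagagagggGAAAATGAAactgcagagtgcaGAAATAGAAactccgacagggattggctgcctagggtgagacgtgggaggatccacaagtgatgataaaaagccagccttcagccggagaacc
ISG20: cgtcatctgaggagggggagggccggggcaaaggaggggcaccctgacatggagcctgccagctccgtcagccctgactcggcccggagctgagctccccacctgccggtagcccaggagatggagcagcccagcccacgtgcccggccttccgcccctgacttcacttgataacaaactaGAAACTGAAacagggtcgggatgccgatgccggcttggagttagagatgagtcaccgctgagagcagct

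The matches began between 156 and 93 bases before the start in IFI6 and 69 bases before it in ISG20.

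Antigen presentation genes were higher with #1 than with #3, and siNEG lay above both for class II. Of 16 genes of the MHC class II pathway, 7 were higher with #1 than with #3, 0 were lower and 9 did not pass (median 0.12). HLA-DMB, which helps load peptides, lay at 0.01, 0.10, -0.01 and 0.14 in the #1 arrays, against -0.40, -0.34, -0.50 and -0.32 in the #3 arrays and 0.18 to 0.49 in the siNEG arrays (0.45 ± 0.06, limma adjusted p = 6.86e-05). The 3 groups did not overlap, with #3 lowest and siNEG highest. HLA-DQB1 was higher with #1 than with #3 by 0.40 ± 0.07, HLA-DOA, a modulator of loading, by 0.37 ± 0.06, HLA-DPA1 by 0.35 ± 0.06, HLA-DPB1 by 0.33 ± 0.05 and CD74, the invariant chain, by 0.24 ± 0.05. No member of the list was called higher with #1 than with siNEG.

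Against siNEG, 6 members of the class II list were lower with #1 and 10 with #3. In 5 of the 7 called the siNEG mean lay above both siRNAs, against 74 of the 1322 genes called higher with #1. The list mean lay between 0.01 and 0.02 in the #1 arrays, against -0.17 to -0.12 in the #3 arrays and 0.10 to 0.18 in the siNEG arrays. The Y box CTGATTGG, which holds the CCAAT box letters in reverse and is part of class II promoters, was searched on both strands. It stood in 5 of 13 promoters of the list (38.5%), against 4.59% of 27305 genes. Of the 7 members called higher with #1 than with #3 it stood in 2, and of the 6 not past in 3. HLA-DQB1 (chr6:32666658-32666907, - strand) is shown as a member higher with #1 than with #3 that holds the match, 91 bases before its start.
HLA-DQB1: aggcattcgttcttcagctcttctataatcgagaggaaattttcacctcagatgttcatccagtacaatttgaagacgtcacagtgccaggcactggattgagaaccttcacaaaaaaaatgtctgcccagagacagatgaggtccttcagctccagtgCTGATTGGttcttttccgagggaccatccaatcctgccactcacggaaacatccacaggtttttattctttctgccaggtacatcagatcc

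Of 19 genes of MHC class I and peptide loading, 6 rose and 0 fell (median 0.15), led by TAP2, a subunit of the peptide transporter (0.34 ± 0.05), HLA-E (0.33 ± 0.07), HLA-F (0.32 ± 0.05) and PSMB10, a catalytic subunit of the immunoproteasome (0.32 ± 0.05). In all 6 the siNEG mean lay between the siRNAs, as it did in 978 of the 1322 genes called higher with #1. HLA genes are alike in sequence, so a probe may read more than 1 of them. Of 32 NF-kB and inflammatory genes, 6 rose and 3 fell (median 0.06): PTGS2, the inducible cyclooxygenase, lay at 0.43, 0.42, 0.75 and 0.64 in the #1 arrays, against -0.24, -0.27, -0.13 and -0.30 in the #3 arrays (0.80 ± 0.07). The #3 arrays overlapped the siNEG arrays (-0.45 to -0.19). CXCL1, a chemokine, rose by 0.71 ± 0.12, IL24, a cytokine of the interleukin-10 family, by 0.66 ± 0.07 and IL1A, interleukin-1 alpha, by 0.47 ± 0.06, while SERPINA3, an acute phase protease inhibitor, fell (-0.71 ± 0.10). Cytokine signalling and STAT targets gave 3 higher and 3 lower of 23 (median 0.0043): SOCS2, a feedback inhibitor, fell (-0.46 ± 0.06) and IL6ST, the shared receptor chain gp130, rose (0.34 ± 0.07).

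**Figure D3:**
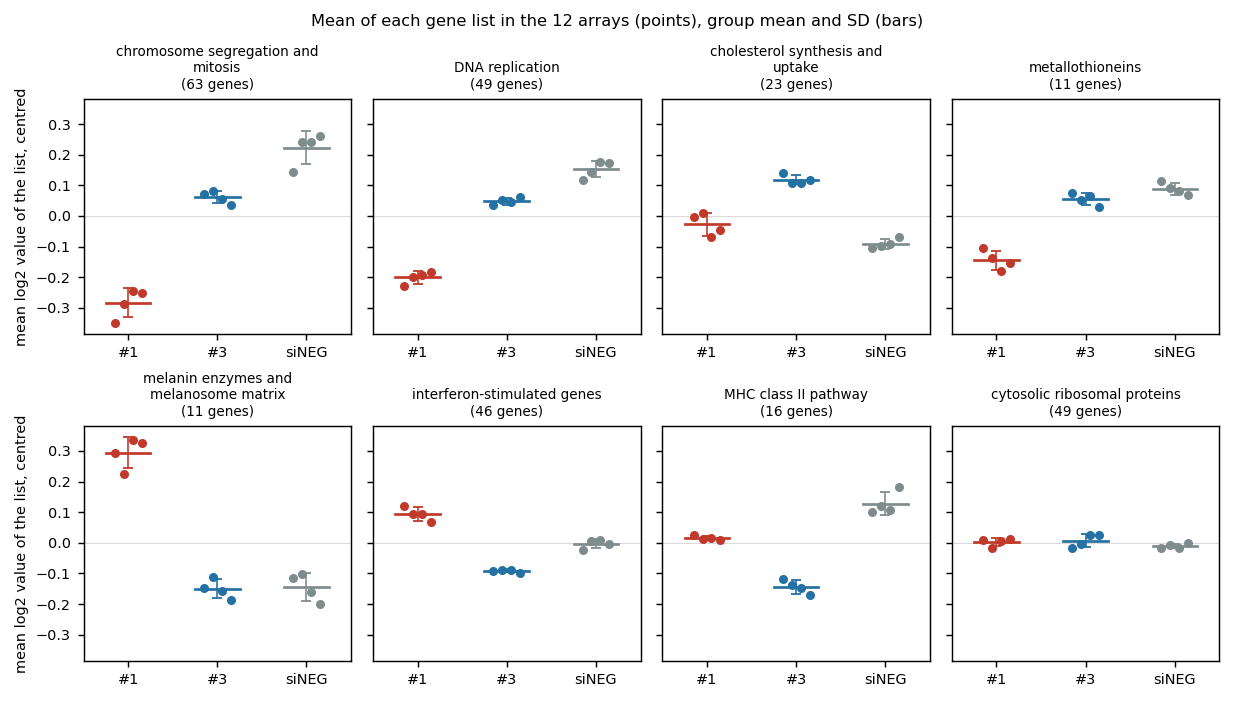
Mean centred log2 value of each of 8 gene lists (y axis) in each array (points) of #1 siCITED1, #3 siCITED1 and siNEG (x axis, 4 arrays each), with the group mean and its SD over arrays. The #1 points lie below both other groups for mitosis, replication and metallothionein genes and above both for melanin and interferon-stimulated genes, the #3 points lie highest for cholesterol genes and lowest for MHC class II genes, and the groups overlap for ribosomal proteins.

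Genes of cholesterol synthesis and uptake differed on the side of #3. Of 23 measured, 11 were lower with #1 than with #3, 3 were higher and 9 did not pass (median -0.21). INSIG1, which is induced when sterols are low, lay at 0.01, -0.18, -0.06 and -0.15 in the #1 arrays, against 0.29, 0.32, 0.41 and 0.29 in the #3 arrays and -0.46 to -0.12 in the siNEG arrays (-0.43 ± 0.06, SE, n = 4 each, limma adjusted p = 9.75e-05). The #3 arrays lay above both other groups, which overlapped. IDI1, an isomerase of isoprenoid synthesis, was lower with #1 than with #3 by 0.44 on the log2 scale, FDPS, farnesyl diphosphate synthase, by 0.37, ACAT2, a thiolase at the start of the pathway, by 0.36, and SC5D, a late desaturase, by 0.32. PMVK, phosphomevalonate kinase, was higher with #1 by 0.34.

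Against siNEG, 4 members of the cholesterol list were higher and 2 lower with #1, and 8 higher and 0 lower with #3. The list mean lay between -0.07 and 0.01 in the #1 arrays, against 0.11 to 0.14 in the #3 arrays and -0.11 to -0.07 in the siNEG arrays. The sterol response element TCACCCCAC, searched on both strands in the same windows, stood in 1 of 21 promoters of the list, that of SREBF2, the transcription factor of sterol genes (-0.21 between the siRNAs), against 0.45% of 27305 genes. In neighbouring lipid lists no member was called lower with #1: of 16 fatty acid synthesis genes 2 rose and 0 fell (median 0.07), with ACSL1, an acyl-CoA ligase, at 0.24 ± 0.07, and of 21 genes of lipid droplets and fatty acid oxidation 3 rose and 0 fell (median -0.02), with HADHB, a subunit of the mitochondrial trifunctional protein, at 0.44 ± 0.05.

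Of 9 metallothionein genes, 3 fell with #1 (MT1E, MT1X and MT1G) and 6 did not pass, among them MT2A at -0.22 (limma adjusted p = 0.0516) and MT1F, MT1H and MT1M at 0.07, 0.06 and 0.05. The list also holds their regulator MTF1 (-0.21 ± 0.07) and the zinc exporter SLC30A1 (-0.20 ± 0.06), which passed, so that 5 of its 11 genes fell and 0 rose (median -0.20). MT1X lay at -0.38, -0.28, -0.43 and -0.58 in the #1 arrays, against 0.11, 0.16, 0.17 and 0.17 in the #3 arrays and 0.19 to 0.40 in the siNEG arrays (-0.57 ± 0.06, limma adjusted p = 1.75e-05). The #1 arrays lay below all others. MT1G gave -0.51 ± 0.05 and MT1E, as the mean of its probes, -0.58 ± 0.06. The metallothionein genes are near copies that lie together on chromosome 16, so their probes may not tell them apart. The metal response element TGCGCNC stood in 3 of 6 promoters of the list (50%) on either strand, against 19.7% of 27305 genes, in 1 of the 3 that fell and 2 of the 3 that did not pass; MT1X (chr16:56682220-56682469, + strand, GRCh38.p14) is shown as the member that fell with the match, at 150 and 53 bases before its start.
MT1X: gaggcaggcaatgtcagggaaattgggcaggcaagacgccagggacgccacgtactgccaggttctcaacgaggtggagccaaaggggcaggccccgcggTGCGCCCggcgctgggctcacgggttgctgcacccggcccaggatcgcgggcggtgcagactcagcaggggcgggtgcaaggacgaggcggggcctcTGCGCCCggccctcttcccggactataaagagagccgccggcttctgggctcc

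Other stress responses pointed in different directions. Of 20 genes of the unfolded protein response in the endoplasmic reticulum, 5 fell and 0 rose (median -0.11): EDEM1, which sends misfolded glycoproteins to decay (-0.42 ± 0.06), CRELD2 and MANF, secreted stress proteins (-0.31 ± 0.06 and -0.26 ± 0.07), HSPA5, the chaperone BiP (-0.31 ± 0.05), and DNAJC3, an inhibitor of the kinase PERK (-0.19 ± 0.06). In 4 of these 5 the siNEG arrays were spread over more than the difference. Of 26 ATF4 and amino acid stress genes 2 rose, the transporter SLC7A5 (0.39 ± 0.06) and MTHFD2, a mitochondrial folate enzyme (0.33 ± 0.07), and 1 fell, the transporter SLC1A5 (-0.28 ± 0.07; median 0.05). Of 18 tRNA synthetases NARS1 rose (0.34 ± 0.06) and WARS1 fell (-0.81 ± 0.05; median -0.02). WARS1 lay at -0.57, -0.53, -0.46 and -0.51 in the #1 arrays, against 0.35, 0.32, 0.17 and 0.30 in the #3 arrays, and is itself induced by interferon gamma in human cells.

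Of 18 heat shock proteins 5 fell and 1 rose (median -0.07): HSPB8, a small chaperone (-0.51 ± 0.06), and HSPA1A, an inducible chaperone (-0.41 ± 0.06), led the falls, and HSPH1, a nucleotide exchange factor, rose (0.39 ± 0.10) with overlapping arrays. NRF2 targets and AKR1C enzymes gave 6 higher and 0 lower of 21 (median 0.09), HMOX1 and PIR among them. AKR1C3, a reductase of steroids and prostaglandins, lay at 0.49, 0.61, 0.44 and 0.60 in the #1 arrays, against -0.03, -0.02, 0.02 and -0.07 in the #3 arrays and -0.75 to -0.27 in the siNEG arrays (0.56 ± 0.05). NQO1, a quinone reductase, rose by 0.37 ± 0.06 and TXNRD1, thioredoxin reductase, by 0.25 ± 0.05. In 5 of these 6 genes the siNEG mean lay below both siRNAs, against 270 of the 1322 genes called higher with #1.

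Genes of the hypoxia response and glycolysis gave 8 higher and 2 lower of 37 (median 0.06), and the leading pair differed on the side of #3. ADM, the vasodilator adrenomedullin, lay at 0.21, 0.39, 0.40 and 0.33 in the #1 arrays, against -0.73, -0.56, -0.76 and -0.62 in the #3 arrays and 0.29 to 0.40 in the siNEG arrays (1.00 ± 0.06, SE, n = 4 each, 1.99-fold, limma adjusted p = 1.07e-07). The #3 arrays stood apart and the #1 arrays overlapped siNEG. SLC2A3, a glucose transporter, ran the other way, at -0.31, -0.16, -0.15 and -0.27 in the #1 arrays, against 0.47, 0.53, 0.67 and 0.66 in the #3 arrays and -0.46 to -0.20 in the siNEG arrays (-0.81 ± 0.06). NDRG1, a hypoxia-induced growth regulator, rose by 0.69 ± 0.06, on the side of #1 (0.58 against siNEG), and BNIP3L, a mitophagy receptor, by 0.63 ± 0.08.

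Of 39 genes of oxidative phosphorylation 8 rose and 4 fell (median 0.05), PPARGC1A leading the rises, with TFAM, the mitochondrial transcription factor (0.32 ± 0.06), and NDUFV2, a subunit of complex I, leading the falls (-0.31 ± 0.06). The mitochondrial ribosome and protein import list gave 5 higher and 3 lower of 28 (median -0.01), with MRPL1 at 0.50 ± 0.07 and MRPS7 at -0.20 ± 0.05. Of 49 cytosolic ribosomal proteins RPS23 fell (-0.22 ± 0.05), 0 rose and 48 did not pass (median -0.0047). Ribosome biogenesis and MYC targets gave 3 higher and 2 lower of 31 (median -0.01), with MYC itself at 0.20 ± 0.06 and PA2G4, a nucleolar growth regulator, at -0.35 ± 0.06. Translation factors gave 2 higher and 1 lower of 24 (median -0.05), the lower being EIF4EBP2, an inhibitor of cap binding (-0.39 ± 0.07). The proteasome list gave 1 higher and 2 lower of 25 (median -0.03), with PSMB4 at -0.62 ± 0.07, and splicing factors gave 1 higher and 5 lower of 35 (median -0.06), with SRSF6 at 0.28 ± 0.08 and HNRNPH1 at -0.25 ± 0.06.

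**Figure D4:**
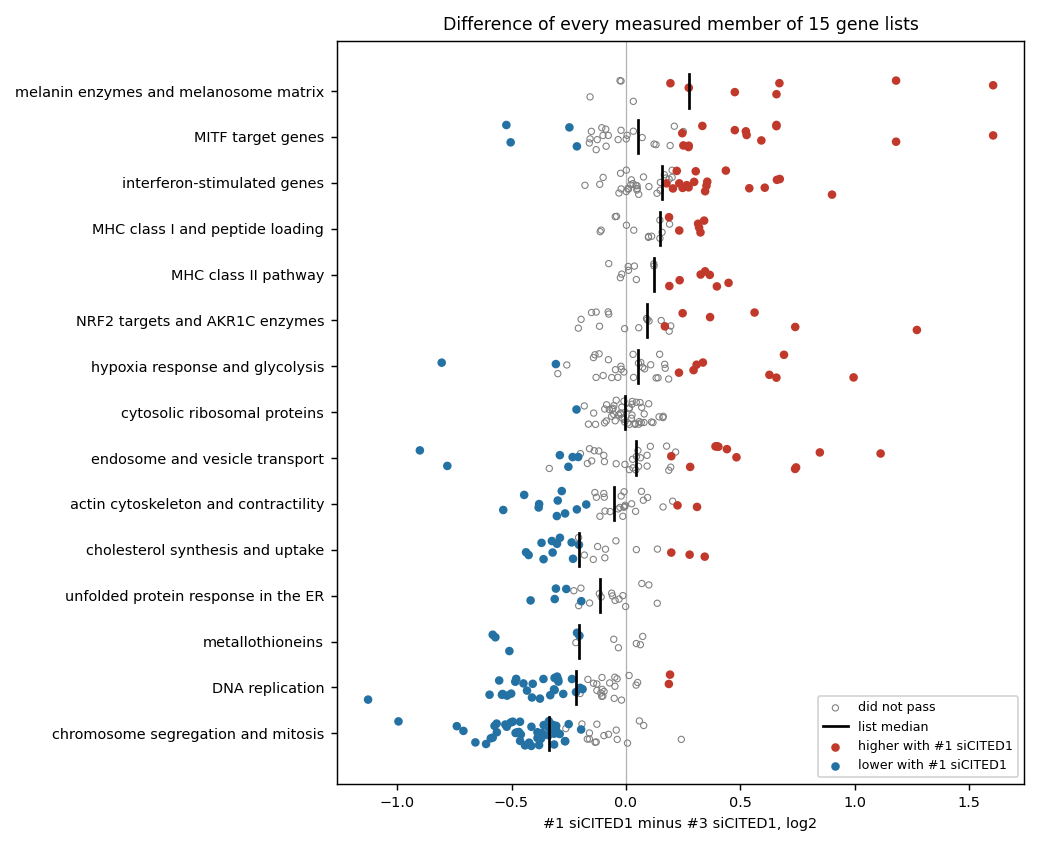
Difference between #1 and #3 siCITED1 in log2 (x axis) for every measured member of 15 gene lists (rows); filled points passed limma at an adjusted p under 0.05, open points did not, and bars mark list medians. The members that passed lie on the lower side for mitosis, metallothioneins and the unfolded protein response, on the higher side for melanin, interferon-stimulated, MHC and NRF2 genes, and on both sides for the transport, cholesterol, hypoxia and MITF target lists.

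Vesicle transport genes differed widely and in both directions. Of 43 genes of endosome and vesicle transport, 11 rose, 6 fell and 26 did not pass (median 0.05). RAB5A, the GTPase of early endosomes, lay at 0.43, 0.59, 0.55 and 0.97 in the #1 arrays, against -0.46, -0.38, -0.42 and -0.64 in the #3 arrays (1.11 ± 0.10). Its siNEG arrays lay at -1.03, -0.03, 0.40 and 0.02, a wider spread than the difference between the siRNAs. SAR1A, the GTPase that starts COPII coats, rose by 0.85 ± 0.10 and SEC22B, a SNARE of the early secretory path, by 0.74 ± 0.10, while TMED10, a cargo receptor, fell (-0.90 ± 0.12), as did SEC24A, a COPII coat protein (-0.78 ± 0.08). In 15 of the 17 called the siNEG mean lay between the siRNAs, against 1763 of the 2592 genes called in all.

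Of 39 lysosomal hydrolase and proton pump genes 8 rose and 2 fell (median 0.09). CTSK, cathepsin K, lay between 0.37 and 0.44 in the #1 arrays, against -0.26 to 0.02 in the #3 arrays and -0.32 to -0.25 in the siNEG arrays (0.53 ± 0.06). ATP6V1A, a pump subunit, rose by 0.40 ± 0.08 and NPC1, which exports cholesterol, by 0.36 ± 0.08, while GLA, a galactosidase, fell (-0.34 ± 0.07). Autophagy genes gave 0 higher and 3 lower of 25 (median 0.0038), the largest fall being that of GABARAPL2, an LC3 relative (-0.53 ± 0.07). Of 30 genes of the nuclear pore and nuclear transport, 6 rose and 7 fell (median -0.05): the importins KPNA3 (0.72 ± 0.09) and KPNA2 (-0.58 ± 0.07) moved apart, and NUP88 rose (0.66 ± 0.08) on the side of #3 (-0.74 against siNEG).

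Matrix, adhesion and cytoskeleton genes were split as well. Of 42 extracellular matrix genes 4 rose and 3 fell (median 0.03): MMP1, interstitial collagenase, lay at 0.46, 0.26, 0.26 and 0.31 in the #1 arrays, against -0.45, -0.37, -0.25 and -0.29 in the #3 arrays, with siNEG from -0.10 to 0.09 between them (0.66 ± 0.06). SPARC, a collagen-binding matrix protein, rose by 0.54 ± 0.07, and COL1A2, a chain of collagen I, and VCAN, the proteoglycan versican, fell (-0.60 ± 0.06 and -0.48 ± 0.06). Of 34 integrin and adhesion genes 6 rose and 5 fell (median -0.06), among them ITGAV (0.60 ± 0.13, with overlapping arrays and siNEG from -0.22 to 0.91) and its partner ITGB3 (-0.52 ± 0.06). Of 34 genes of the actin cytoskeleton and contractility 10 fell and 2 rose (median -0.05), led by the GTPases RHOB (-0.54 ± 0.08) and RHOC (-0.44 ± 0.06) and the cross-linker ACTN4 (-0.38 ± 0.07).

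In signalling, TGF-beta and BMP genes gave 2 higher and 5 lower of 35 (median -0.03). TGFBR2, the receptor that binds TGF-beta, lay at -0.24, -0.24, -0.28 and -0.26 in the #1 arrays, against 0.32, 0.38, 0.41 and 0.49 in the #3 arrays, above siNEG (-0.24 to -0.09) with #3 (-0.65 ± 0.05 between the siRNAs, limma adjusted p = 1.06e-06). Its co-receptor TGFBR3 fell too (-0.50 ± 0.05), while BMPR2, a BMP receptor, and ID2, an inhibitor of differentiation induced by BMP, rose (0.60 ± 0.08 and 0.54 ± 0.07). Wnt pathway and target genes gave 5 higher and 3 lower of 36 (median 0.01). Besides DKK1 and WNT5A, the receptors FZD4, FZD1 and FZD8 rose by 0.71 ± 0.06, 0.60 ± 0.06 and 0.49 ± 0.06, and AXIN2, a feedback inhibitor, fell (-0.30 ± 0.08) with overlapping arrays.

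Immediate early and AP-1 genes gave 5 higher and 6 lower of 29 (median -0.02). KLF2, a transcription factor of quiescence, lay at -0.22, -0.26, -0.36 and -0.47 in the #1 arrays, against 0.47, 0.72, 0.56 and 0.29 in the #3 arrays and -0.21 to -0.14 in the siNEG arrays (-0.84 ± 0.08). It thus stood apart with #3. JUN, an AP-1 subunit, fell (-0.70 ± 0.07), as did EGR1 (-0.51 ± 0.06), a factor induced by serum, and NR4A2 and the antiproliferative gene BTG1 rose (1.29 ± 0.06 and 0.56 ± 0.08). The YAP and TEAD list gave 4 higher and 7 lower of 30 (median -0.03). YAP1 itself rose by 1.08 ± 0.09, with #1 arrays from 0.38 to 0.85, #3 arrays from -0.64 to -0.36 and siNEG arrays from -0.38 to 0.28. Its target genes CCN2 and CCN1, matricellular proteins, fell (-0.70 ± 0.07 and -0.48 ± 0.05).

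MAPK feedback and output genes gave 1 higher and 5 lower of 26 (median 0.02), CCND1 leading, with DUSP5, an ERK phosphatase, at -0.42 ± 0.06 and SPRY1, a feedback inhibitor, at 0.18 ± 0.05. Receptor tyrosine kinases gave 2 higher and 5 lower of 35 (median -0.01), and here the 3 relatives of a family differed in direction: TYRO3 and AXL fell (-0.49 ± 0.05 and -0.36 ± 0.05) and MERTK rose (0.33 ± 0.05). Semaphorins, ephrins and axon guidance genes gave 3 higher and 5 lower of 30 (median -0.01), with SEMA3B at -0.41 ± 0.07 and EFNA1 at 0.28 ± 0.06.

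The machinery of RNA interference itself held a few genes that were lower with #1. Of 15 genes 4 fell, 0 rose and 11 did not pass (median -0.06). The share that fell was 26.7%, against 6.34% over all genes, and 27.7% of the genes on any list were called in either direction. AGO2, the slicer of the silencing complex, lay at -0.34, -0.13, -0.32 and -0.33 in the #1 arrays, against 0.16, 0.12, 0.20 and 0.40 in the #3 arrays and -0.04 to 0.12 in the siNEG arrays (-0.50 ± 0.07). DICER1, which cuts small RNA precursors, lay between -0.25 and -0.12 in the #1 arrays, against 0.22 to 0.31 in the #3 arrays and -0.16 to 0.02 in the siNEG arrays (-0.44 ± 0.05). AGO2 was thus low with #1 and DICER1 high with #3 against siNEG (-0.34, limma adjusted p = 0.0022, and 0.33, adjusted p = 0.00081). RAN, which carries precursors out of the nucleus with exportin-5, and TARBP2, a partner of DICER1, fell by 0.25 and 0.21 on the log2 scale, TARBP2 with overlapping arrays. The call of TARBP2 was lost in several alternatives, with an adjusted p of 0.267 (limma) for its most variable probe.

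Of 38 chromatin modifiers 2 rose, KAT2B and the demethylase KDM5B (0.30 ± 0.07), and 3 fell, ARID2, a subunit of a remodelling complex (-0.34 ± 0.06), EZH2, the polycomb methyltransferase (-0.32 ± 0.05), and KAT2A, the paralog of KAT2B (-0.24 ± 0.06; median -0.01). Of the 5 genes encoding CITED proteins, CBP or p300 none passed between the siRNAs (median 0.03). Of 20 cancer-testis antigens MAGED2 fell (-0.19 ± 0.05; median -0.03), and of 13 housekeeping genes HPRT1 and IPO8 rose (0.31 ± 0.05 and 0.22 ± 0.06) and SDHA fell (-0.23 ± 0.06; median 0.07). Markers of cell types are given as differences alone, since centred values cannot show which cells a culture held. Of 8 melanocyte markers measured 4 rose and 0 fell, which are pigment genes named above. Of 19 markers of fibroblasts, keratinocytes, blood and endothelial cells 18 did not pass, and COL1A2 fell.

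Variation within groups moved with some of these results. In 801 of the 2592 genes called (30.9%) the siNEG arrays alone were spread over more than the difference between #1 and #3, as in DDX21 and RAB5A, where siNEG replicate 1 lay low, and in ITGAV, where siNEG replicates 2 and 3 lay high. The count was 485 of the 1322 genes higher with #1 (36.7%) and 316 of the 1270 lower (24.9%). Among the lists it was 8 of 47 for mitosis, 3 of 18 for interferon-stimulated genes, 1 of 7 for melanin genes and 7 of 17 for vesicle transport. Some calls lay near the threshold: those of ACSL1, AXIN2, BCL2A1, DNAJC3, HSPH1, IFIH1, IPO8, MAGED2, MANF, MRPS7, MTF1, MYC, SDHA, SLC30A1, SPRY1, SRSF6 and TARBP2 were each lost on leaving out any of 2 to 7 of the 8 arrays, with adjusted p between 0.0512 and 0.135 (limma) and differences of 0.16 to 0.36 log2 in size. With the siNEG arrays in the fit, the calls of ITGAV (adjusted p = 0.0676, limma), ACSL1, DNAJC3 and SRSF6 were lost. The siNEG arrays do not enter the test between the siRNAs, and the part of this variation in the differences between #1 and #3 was not tested. Beadchip positions were not given in the sources used here, so a batch of arrays cannot be told apart from the groups.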

How the data were processed

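RNA from 12 wells of HT144 cells was hybridised to Illumina HT-12 arrays. The deposited values are log2 intensities that the authors quantile normalized, cleared of control probes in BASE, and centred on each probe and each array in MeV; how background was corrected, whether detection was called and which versions were used is not stated in the sources used here. Centring leaves differences between groups as they are, but it removes levels, so no filter on dim probes was possible. Of 47315 probes, 30105 had 1 gene symbol in the platform annotation, 8 had several and 17202 had no entry.

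Differences (#1 siCITED1 minus #3 siCITED1) were estimated by limma (version 3.58.1, under R 4.3.3) on the 8 arrays of these groups, for each probe and for the mean of each gene's probes, with Benjamini-Hochberg adjustment over all probes or genes and a threshold of 0.05. Values against siNEG came from a fit of all 12 arrays. CITED1 and MITF were also tested by exact permutation. The fit was tested on simulated data. Named genes were the 12 largest differences each way among named probes called with groups apart, 8 genes fixed by the study's question, and up to 6 called members of each of 60 lists (of 1830 entries 1714 matched as listed and 17 through an older symbol). The members and lists were chosen with earlier results of these data known. Alternatives covered scaling, the block on replicate number, filters, moderation and left-out arrays. Promoters were RefSeq windows of GRCh38.p14, read with Python 3.11.15 and pandas 2.3.3; figures were drawn with matplotlib 3.10.9.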

Additional observations from a re-analysis of the deposited data

Results flagged for a closer look

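In 28 of 666 groups of 4 arrays examined for the named genes, 1 array stood alone by a criterion that chance meets in about 1 in 20 groups. Values are centred log2 values. Among the #1 arrays, replicate 2 stood alone for MITF at probe ILMN_2304186 (0.36, high), AGO2 (-0.13, high) and FZD1 (0.42, high), replicate 3 for SDHA (-0.27, low) and SLC7A5 (0.11, low), and replicate 4 for PA2G4 (-0.09, high).

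Among the #3 arrays, replicate 1 stood alone for AURKA (0.26, high) and POLA2 (0.03, low). Replicate 2 did so for MITF at probe ILMN_1761324 (0.19, high), CCN1 (0.23, high), PA2G4 (-0.02, low), PIR (-0.35, low), RHOB (0.60, high), SPRY1 (-0.03, high) and ZBP1 (-0.11, low). Replicate 3 did so for CD74 (-0.23, low), CRELD2 (0.23, high) and NARS1 (-0.04, high), and replicate 4 for MGP at its leading probe (0.93, high), FAM3C at its leading probe (0.00, low), ID2 (-0.28, low), PPARGC1A (-0.30, low) and SRSF6 (-0.42, low).

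Among the siNEG arrays, replicate 1 stood alone for CREBBP at probe ILMN_1809583 (-0.15, low), AURKA (0.22, low), MRPS7 (0.21, high) and TFAM (-0.42, low), and replicate 2 for RHOB (-0.15, high).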

How the results depend on the processing

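Over the alternatives tried, the probes called between #1 and #3 numbered 3528 with the siNEG arrays in the fit, 3816 after a further quantile normalization, 3820 with arrays set to 1 SD, 3833 with the more variable probes alone, 3559 with named probes alone and 3845 with robust moderation, against 3857 as reported. With a fold of at least 1.5 required as well, 437 were left. Leaving out 1 array gave between 3217 and 3577 probes and between 2151 and 2369 genes. Genes numbered 2479 with siNEG in the fit, 2558 after quantile normalization and 2931 with the most variable probe of each gene, against 2592. The most variable probe lost the calls of DNAJC3, MTF1 and TARBP2 (adjusted p = 0.0619, 0.0548 and 0.267, limma), and siNEG in the fit those of ACSL1, DNAJC3 and SRSF6 (0.0566, 0.0590 and 0.0608) beside ITGAV.

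Replicate numbers did not pair the arrays: deviations of arrays with the same number correlated at 0.0152, -0.0436, -0.0121 and -0.0001, and 1 of 4 correlated best with its own number. The replicate block gave 3752 probes and 2445 genes. Among named genes it lost the calls of MAGED2, MTF1, SPRY1 and TARBP2 (adjusted p = 0.0594, 0.0547, 0.0717 and 0.0699, limma).

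Left-out arrays moved CITED1 between 0.09 and 0.14 and the MITF probes between -0.05 and 0.03, -0.06 and -0.01, and -0.08 and 0.04, none past the threshold. CDKN1A (ILMN_1784602) passed in 3 alternatives, without #1 replicate 4 (adjusted p = 0.0304, limma), with arrays set to 1 SD (0.0492) and with named probes alone (0.0462). Among lists, mitosis genes lower with #1 numbered 42 to 47, replication genes 25 to 28, interferon-stimulated genes higher 16 to 20, melanin genes 6 to 7 and cholesterol genes lower 9 to 13. The median of 13 lists with medians near 0 changed sign in some setting. With 4 arrays a group, differences near 0.2 log2 lie at the edge of what passes, and values without levels do not show which probes are near background.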
